A study of Mus musculus with 6 samples.

Results

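Cadherins and protocadherins are transmembrane adhesion proteins, and 65 genes of this superfamily were followed here in endothelial cells of the Ccm3 knock-out and wild-type mouse cerebellum. Members were genes whose deposited name begins with Cdh or Cdhr and a digit, or with Pcdh, with the vascular cadherins Cdh5 and Cdh13 left out, and with at least 10 normalised reads in at least 3 of 6 libraries. Of 68 matching names, 65 were kept from 14076 genes that passed the same limit. Besides the 2 genes left out by name, Cdhr4 missed the limit, with 3.77, 7.83 and 4.54 normalised reads in Ccm3 knock-out libraries, against 11.9, 4.00 and 6.32 in wild-type libraries. At least 10 normalised reads were present in all 6 libraries for 58 members, and 0 members passed the limit through one genotype alone.

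The series compared 3 Ccm3 knock-out with 3 wild-type C57BL6 mice at postnatal day 9, with RNA from 1 mouse in each library as the labels describe them. Ccm3 is an older name of Pdcd10, and loss of it causes cerebral cavernous malformations, in which brain capillaries widen into thin-walled, bleeding lesions. Cerebella were dissociated and the endothelial cells taken with CD45 and CD31 beads, and total RNA was sequenced after depletion of ribosomal RNA. The sources used here do not name the knock-out allele, a Cre driver or how the deletion was induced. A normalised read is a gene's read count divided by a size factor of its library.

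Classical cadherins bind the same cadherin on a neighbouring cell through calcium-dependent extracellular repeats, and their tails anchor actin through catenins. Type I members, such as N-cadherin, form strong junctions, and N-cadherin in brain vessels lies mostly between endothelial cells and pericytes, whereas VE-cadherin holds the endothelial junction itself. Protocadherins lack the catenin-binding tail. The delta protocadherins are single genes that act in cell sorting, axon growth and synapses. The alpha, beta and gamma protocadherins lie in tandem on chromosome 18, and in neurons each cell uses a few of them as a surface identity code chosen through CTCF and cohesin at alternative promoters.

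The targeted gene Pdcd10 followed the labels, with 230.1, 154 and 309 normalised reads in Ccm3 knock-out libraries, against 529, 522 and 689 in wild-type libraries (0.39-fold, adjusted p = 0.0162, limma). That adjusted p was 0.0511, 0.0605 and 0.0619 without wild-type 1, 2 and 3. The libraries held 11075769 to 21142333 reads in listed genes. All 10 endothelial markers were tested and none was called. Their summed level was 126191 to 153759 normalised reads in Ccm3 knock-out and 142362 to 160703 in wild-type libraries. Pecam1 was higher in knock-out without overlap (1.33-fold, adjusted p = 0.0669, limma). Cldn5 (0.77-fold, 0.0813), Kdr (0.76-fold, 0.167) and Erg (0.90-fold, 0.428) were lower without overlap. Over all genes 25.5% did not overlap in either direction. Markers of other cells were also present, none of the 75 tested marker genes being at 0 in any library. Of 8 listed red cell and platelet markers 6 were tested. Hba-a1, Hba-a2, Hbb-bs and Alas2 fell, 4 of the 6, against 2.64% of all genes. The sum of the 6 was 5533 to 6702 in Ccm3 knock-out and 9993 to 19781 in wild-type libraries. Itga2b, the platelet marker tested, was not called, with 70.7, 148 and 150 normalised reads in knock-out against 54.9, 73.4 and 68.6 in wild-type libraries. The lower sum thus reflected red cell markers. The part of any of these differences in the results below was not tested.

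Among the 65 members, 3 fell in Ccm3 knock-out cells, 0 rose and 62 were not called at an adjusted p of 0.05 (limma on log2 values, adjusted over all 14076 genes). The 3 were Cdh2, Cdh11 and Pcdh19. This is 4.62% of members, against 6.24% of all genes called in either direction (3.6% rose and 2.64% fell), so the share called was near the background. Knock-out and wild-type values did not overlap for 11 members, or 16.9%, against 25.5% of all genes; knock-out was lower in 5 of them and higher in 6, against 12.8% of all genes each way. The unadjusted p was below 0.05 for 7 members, against 19.0% of all genes. Of the 62 uncalled members, 37 had a 95% interval within 2-fold either way, and 16 of them lay within 1.5-fold, so larger changes lay outside the interval for these genes and not for the others.

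**Figure D1:**
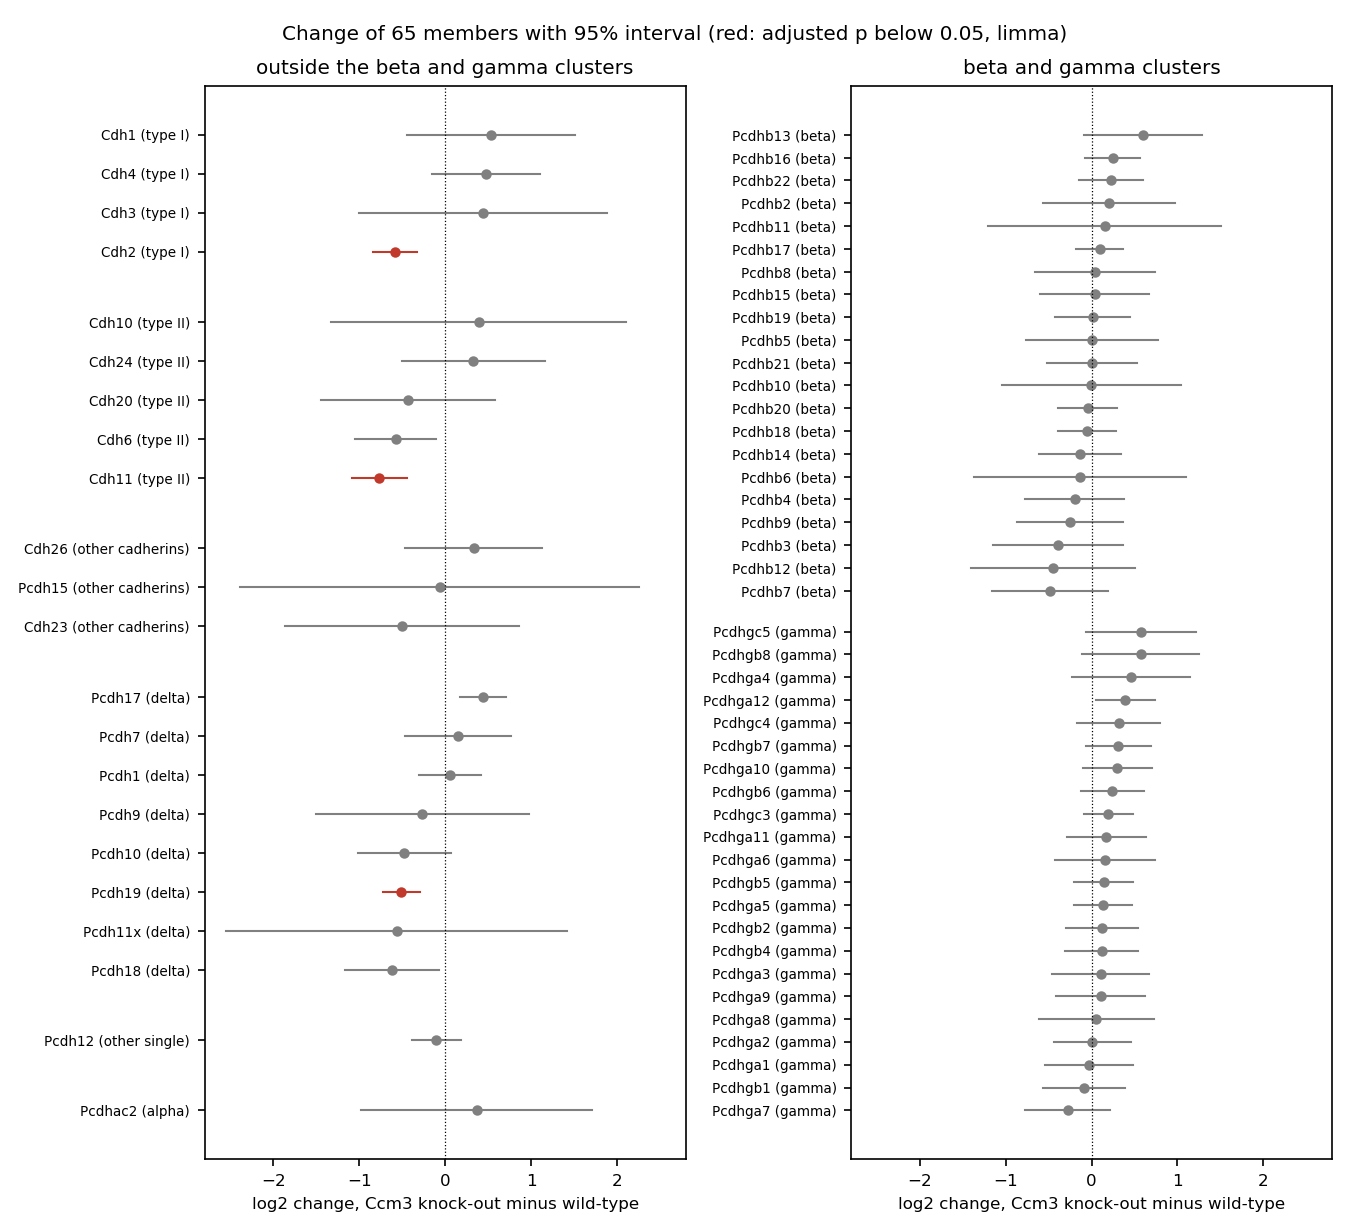
Log2 change (Ccm3 knock-out minus wild-type, horizontal axis) of each of the 65 members with its 95% interval, by class, 3 libraries per genotype; red marks an adjusted p below 0.05. Cdh2, Cdh11 and Pcdh19 are the red points, all below 0, and most gamma points sit slightly above 0 with intervals that cross it.

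Cdh2, which encodes N-cadherin, fell in Ccm3 knock-out cells. It had 6081, 6595 and 5800 normalised reads in Ccm3 knock-out libraries, against 10487, 8323 and 8930 in wild-type libraries. Every knock-out library lay below every wild-type library. The means were 6159 ± 403 in knock-out and 9247 ± 1116 in wild-type cells (SD, n = 3 each), a 0.67-fold level (95% interval 0.56 to 0.80, log2 change -0.58, adjusted p = 0.0227, limma). The gene lies on chromosome 18, minus strand, from 16588877 to 16809246 (GRCm38). The call was lost without knock-out 1 (adjusted p = 0.0515), wild-type 1 (0.0853), wild-type 2 (0.0584) or wild-type 3 (0.0674), with log2 changes of -0.65 to -0.49 in these limma fits.

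Cdh11, the type II cadherin of mesenchymal cells such as fibroblasts and some mural cells, showed the largest fall of the 3 called members. It had 1518, 1845 and 2115 normalised reads in Ccm3 knock-out libraries, against 3467, 2880 and 2913 in wild-type libraries. The genotypes did not overlap. The means were 1826 ± 299 in knock-out and 3087 ± 330 in wild-type cells (SD, n = 3 each), a 0.59-fold level (95% interval 0.47 to 0.73, log2 change -0.76, adjusted p = 0.0169, limma). Cdh11 lies on chromosome 8, minus strand, from 102632095 to 102785642. Its call was lost without knock-out 2 (adjusted p = 0.0598), wild-type 1 (0.0709) or wild-type 2 (0.0631).

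In bulk RNA, fewer cells of a type and less RNA per cell cannot be told apart, which bears on both genes because mural cells, fibroblasts and glia also express them. Of 14 listed pericyte and smooth muscle markers 13 were tested, none was called, and their summed level was 42425 to 56202 normalised reads in Ccm3 knock-out and 41258 to 81813 in wild-type libraries. The lowest sums were 42425 in knock-out 3 and 41258 in wild-type 3. In these libraries Cdh2 had 5800 normalised reads in knock-out 3 and 8930 in wild-type 3, and Cdh11 had 2115 in knock-out 3 and 2913 in wild-type 3. The same libraries differed in astrocyte and Bergmann glia markers, at 3358 in knock-out 3 and 5589 in wild-type 3. A single pair of libraries therefore decides nothing about mural RNA. Fibroblast and meninges markers (9 of 10 tested, none called) summed to 1715 to 2799 in knock-out and 2046 to 4106 in wild-type libraries. Astrocyte and Bergmann glia markers (9 of 9 tested, with Gja1 fallen) summed to 3358 to 3862 in knock-out and 5589 to 6750 in wild-type libraries, without overlap. Without Gja1 the other 8 markers, none called, summed to 1723, 1711 and 1168 in knock-out against 3124, 2667 and 1464 in wild-type libraries. These sums overlapped through wild-type 3, the lowest wild-type library. The median log2 change of the 9 markers was -0.34, with Aqp4 at 0.40-fold (adjusted p = 0.131, limma) and Gdf10 at 1.20-fold (adjusted p = 0.737, limma). The part of mural, fibroblast or glial RNA in the fall of Cdh2 and Cdh11 was not tested.

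The other type I and type II cadherins were far lower and none was called. Cdh6, a type II cadherin of developing kidney and neural tissue, had 67.9, 63.3 and 59.0 normalised reads in Ccm3 knock-out libraries, against 114, 94.8 and 79.5 in wild-type libraries. These ranges did not overlap, with a log2 change of -0.58 (95% interval -1.04 to -0.11, adjusted p = 0.167, limma). Cdh4, or R-cadherin, had 77.3, 109 and 102 in knock-out against 85.4, 78.8 and 46.9 in wild-type libraries, with overlap. Cdh3, or P-cadherin, had 137, 24.1 and 27.2 in knock-out against 48.3, 29.4 and 25.3 in wild-type libraries, so knock-out 1 alone stood high. Cdh1, the epithelial E-cadherin, had 52.8, 59.4 and 19.3 in knock-out against 23.8, 30.0 and 27.1 in wild-type libraries. Neither Cdh1 nor Cdh3 was called in any of its 13 fits. The log2 change was 0.25 to 1.03 for Cdh1 and -0.35 to 0.88 for Cdh3 over these fits. A gain of E- or P-cadherin was thus neither shown nor excluded.

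Because Cdh2 and Cdh11 made up nearly all of their classes, the class sums followed them. Type I cadherins summed to 6361 ± 420 normalised reads in Ccm3 knock-out and 9378 ± 1133 in wild-type cells. Type II cadherins summed to 2008 ± 373 in knock-out and 3269 ± 318 in wild-type cells (SD, n = 3 each). Relative to the sum over all members, Cdh2 took 21.3 ± 0.65% in knock-out and 27.8 ± 2.21% in wild-type cells. These sums are a description and were not tested.

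**Figure D2:**
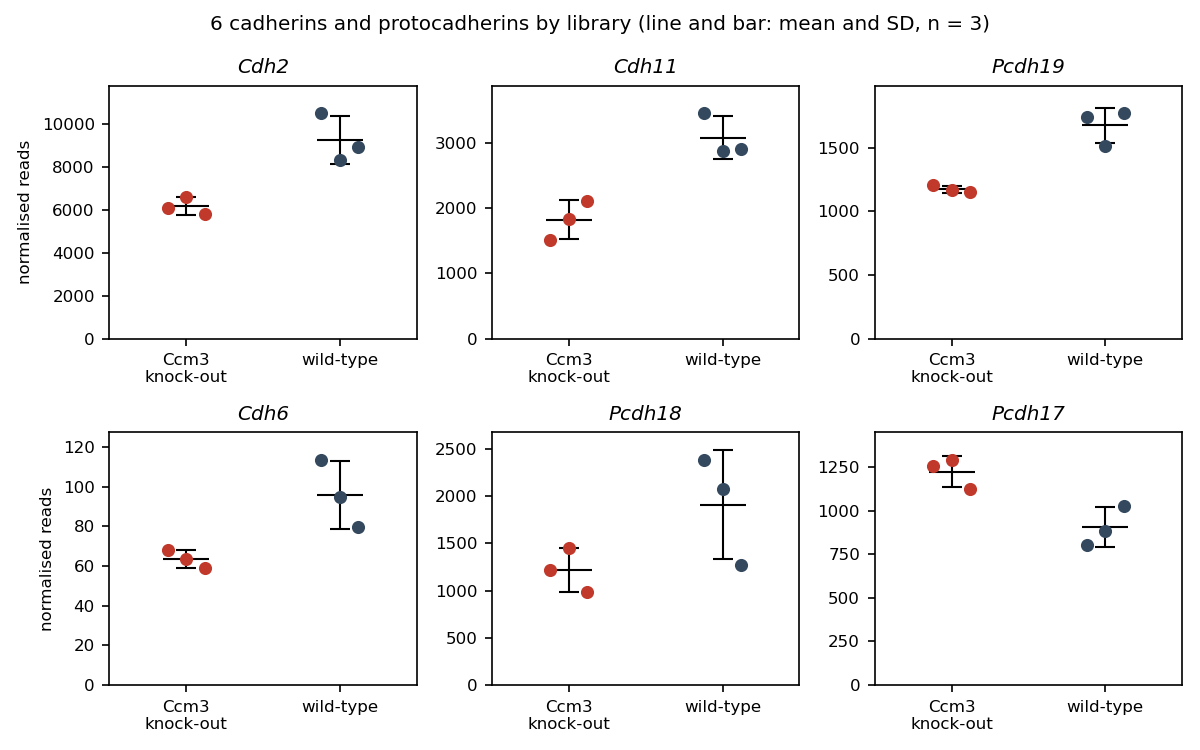
Normalised reads (vertical axis) in the 3 Ccm3 knock-out (left) and 3 wild-type (right) libraries for Cdh2, Cdh11, Pcdh19, Cdh6, Pcdh18 and Pcdh17; points are libraries, lines and bars the mean and SD. Knock-out points lie below wild-type points for Cdh2, Cdh11, Pcdh19 and Cdh6 and above them for Pcdh17, and for Pcdh18 wild-type 3 falls among the knock-out points.

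The delta-2 protocadherins Pcdh10, Pcdh17, Pcdh18 and Pcdh19 are close relatives whose tails can recruit the WAVE actin regulators, and of the 4 only Pcdh19 was called in limma. Their promoters are printed to show the 4 genes side by side, as the 250 bases before the RefSeq gene start (GRCm38.p6, read on the gene strand), at chr3:45378148-45378397 on the plus strand, chr14:84443313-84443562 on the plus strand, chr3:49757317-49757566 on the minus strand and chrX:133688994-133689243 on the minus strand. Capitals mark the CCAAT box, a general promoter element, here in its reverse form ATTGG.
Pcdh10: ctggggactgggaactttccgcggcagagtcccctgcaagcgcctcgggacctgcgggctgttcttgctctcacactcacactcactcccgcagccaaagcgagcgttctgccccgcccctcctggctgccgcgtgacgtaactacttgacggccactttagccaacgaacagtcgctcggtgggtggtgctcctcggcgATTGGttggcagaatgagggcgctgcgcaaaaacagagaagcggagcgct
Pcdh17: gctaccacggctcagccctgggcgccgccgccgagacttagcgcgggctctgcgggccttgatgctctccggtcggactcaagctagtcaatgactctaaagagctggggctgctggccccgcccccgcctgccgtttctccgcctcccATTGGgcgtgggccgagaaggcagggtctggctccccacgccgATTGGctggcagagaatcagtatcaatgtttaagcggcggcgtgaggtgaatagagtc
Pcdh18: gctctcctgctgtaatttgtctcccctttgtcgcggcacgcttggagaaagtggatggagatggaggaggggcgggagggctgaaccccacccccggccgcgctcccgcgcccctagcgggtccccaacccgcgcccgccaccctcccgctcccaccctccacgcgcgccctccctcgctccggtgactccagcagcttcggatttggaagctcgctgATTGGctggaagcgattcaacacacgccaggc
Pcdh19: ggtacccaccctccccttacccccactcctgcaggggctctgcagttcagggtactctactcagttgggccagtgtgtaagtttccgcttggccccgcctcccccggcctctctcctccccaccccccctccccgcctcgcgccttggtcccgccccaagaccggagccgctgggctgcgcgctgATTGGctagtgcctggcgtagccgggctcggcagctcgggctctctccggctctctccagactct
The box began 50 bases before the gene start in Pcdh10, 101 and 58 bases before it in Pcdh17, 32 in Pcdh18 and 65 in Pcdh19. CCAAT or ATTGG was found in 4 of 4 delta-2 promoters and in 8 of the 13 members with a promoter entry, against 33.8% of 32851 promoters of that length. The motif was chosen after these sequences had been read. The GC box (GGGCGG or CCGCCC) was also in 4 of 4, against 32.7% of promoters, and the windows held 63.2 to 69.2% G and C. The E-box CAGGTG (or CACCTG), which ZEB and SNAI repressors of E-cadherin bind, was in 0 of 4 and in 1 of 13, against 17.2% of promoters. The 4 promoters thus shared both boxes, and 1 of the 4 genes, Pcdh19, was called.

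Pcdh19, an X-linked gene mutated in a human epilepsy and whose protein forms an adhesive complex with N-cadherin in zebrafish, also fell. It had 1205, 1166 and 1155 normalised reads in Ccm3 knock-out libraries, against 1742, 1518 and 1775 in wild-type libraries. The knock-out libraries were close together and all below wild-type. The means were 1175 ± 26.6 in knock-out and 1678 ± 140 in wild-type cells (SD, n = 3 each), a 0.70-fold level (95% interval 0.60 to 0.82, log2 change -0.51, adjusted p = 0.0185, limma). The call was lost without knock-out 2 (adjusted p = 0.0602), wild-type 1 (0.0897) or wild-type 3 (0.0804). The antisense gene Gm26851 overlaps an exon of Pcdh19, but 10407 of the 10464 exon bases of Pcdh19 lie outside exons of any other gene. The strand setting of the counting is not given, so reads in such overlaps cannot be separated with certainty. In all, 12 members have an annotated antisense exon overlap, Pcdh10, Pcdhgc3 and Pcdhga10 among them.

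Pcdh17, which acts in axon extension and presynaptic assembly, was not called in limma. It had 1254, 1292 and 1124 normalised reads in Ccm3 knock-out libraries, against 803, 882 and 1027 in wild-type libraries. The genotypes did not overlap, with means of 1223 ± 88.3 in knock-out and 904 ± 114 in wild-type cells (SD, n = 3 each). The log2 change of 0.44 (95% interval 0.17 to 0.71) missed the limit in limma (adjusted p = 0.0699). DESeq2 on recovered reads called it (adjusted p = 0.0183), against 9.75% of all genes called by that tool.

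Pcdh18, whose protein binds the adaptor Dab1, had 1223, 1454 and 983 normalised reads in Ccm3 knock-out libraries, against 2389, 2075 and 1273 in wild-type libraries. Wild-type 3 lay among the knock-out values. Its pericyte and smooth muscle marker sum was the lowest, at 41258 normalised reads. Knock-out 3, whose sum was close at 42425, had a lower Pcdh18 value (983 against 1273). The part of mural RNA in the Pcdh18 level was not tested. The log2 change was -0.62 (95% interval -1.16 to -0.07, adjusted p = 0.206, limma). With the replicate number as a block it was called (log2 change -0.62, adjusted p = 0.0454, with 5.46% of all genes called), and without wild-type 3 it was called with a log2 change of -0.89 (adjusted p = 0.0444, limma). Pcdh10, the fourth of the group, had 65.1, 62.7 and 96.5 in knock-out against 91.3, 123 and 94.8 in wild-type libraries, with overlap.

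The remaining delta member of high level was Pcdh1, a protocadherin of epithelia and endothelium that New World hantaviruses use for entry. It had 3876, 5760 and 3964 normalised reads in Ccm3 knock-out libraries, against 4349, 4584 and 3940 in wild-type libraries. The ranges overlapped, with knock-out 2 the highest library, and the 95% interval of the fold was 0.81 to 1.34. Pcdh12, or VE-cadherin-2, an endothelial protocadherin outside the clusters, had 2828, 3821 and 3686 in knock-out against 3570, 3662 and 3767 in wild-type libraries, with a 95% interval of 0.77 to 1.14-fold. Changes of the size seen in Cdh2 and Cdh11 were thus outside the intervals of both endothelial protocadherins.

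Levels per kilobase of annotated exon allow the genes to be ranked. Cdh2 had 764 ± 49.97 normalised reads per kilobase in Ccm3 knock-out and 1146 ± 138 in wild-type cells (SD, n = 3 each) and was first in both when all annotated exons were counted. Pcdh12 had 569 ± 88.9 in knock-out and 605 ± 16.2 in wild-type cells. Pcdhgc3 had 536 ± 87.2 in knock-out and 466 ± 16.2 in wild-type cells, and Pcdh1 had 515 ± 121 in knock-out and 488 ± 37.0 in wild-type cells, so in knock-out cells the order of these 3 lay within their spread. Pcdh18 followed with 227 ± 43.9 in knock-out and 356 ± 107 in wild-type cells, and Cdh11 with 205 ± 33.6 in knock-out and 347 ± 37.0 in wild-type cells, again within each other's spread. Counted over only the exon length it does not share with other gamma genes, Pcdhgc3 had 873 per kilobase in knock-out cells, above Cdh2, and 757 in wild-type cells, below Cdh2; how reads in shared exons were counted is not known, so first place in knock-out cells is uncertain. The 8 members with a mean above 1000 normalised reads held 77.8% of the summed member level in knock-out and 82.4% in wild-type cells, while 33 members averaged below 100.

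**Figure D3:**
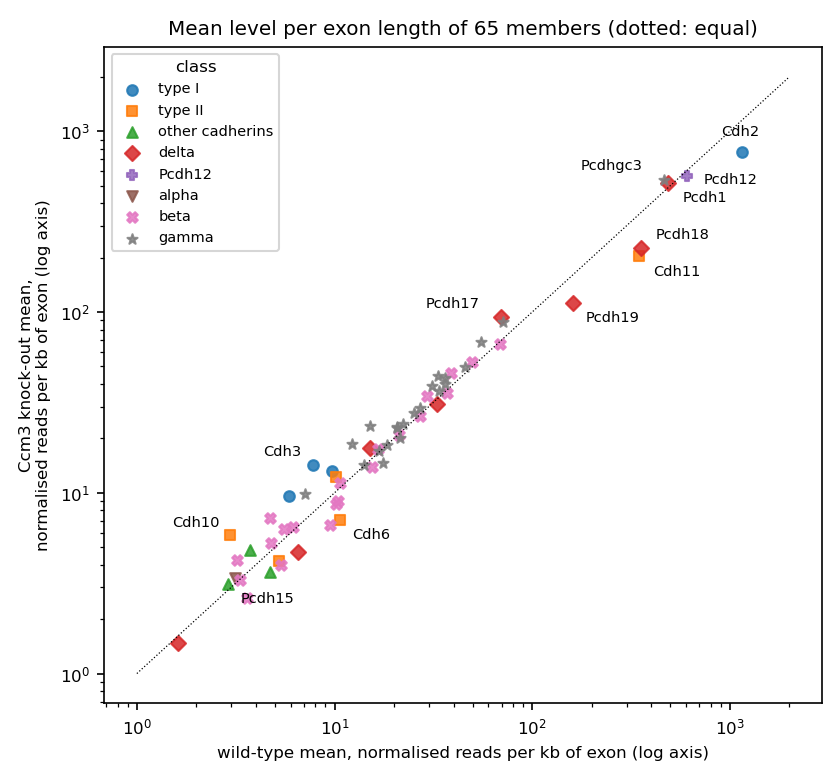
Mean normalised reads per kilobase of exon in Ccm3 knock-out (vertical) against wild-type cells (horizontal) for the 65 members, both axes logarithmic, with the symbol giving the class and the dotted line equality. Cdh2 is at the top right and lies below the line with Cdh11, Pcdh18 and Pcdh19; Pcdh17 lies above it.

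The gamma protocadherins, 22 genes that share constant last exons, were dominated by the C-type gene Pcdhgc3, and none was called. Knock-out values lay above wild-type values without overlap for 2 of 22, or 9.09%, against 12.8% of all genes. Pcdhgc3 had 2917, 3444 and 2487 normalised reads in Ccm3 knock-out libraries, against 2620, 2602 and 2458 in wild-type libraries. These overlapped (log2 change 0.19, 95% interval -0.09 to 0.48, adjusted p = 0.474, limma), and Pcdhgc3 held 45.4 ± 5.27% of the gamma sum in knock-out and 45.7 ± 3.92% in wild-type cells. That share differed between genotypes by less than its spread between mice. The next gamma genes were Pcdhga10, with 464, 454 and 336 in knock-out against 395, 286 and 335 in wild-type libraries, and Pcdhgb7, with 366, 275 and 322 in knock-out against 229, 240.3 and 308 in wild-type libraries. Both overlapped between genotypes. All of the 2613 exon bases that Pcdhga10 does not share on its own strand overlap the antisense gene Gm26672. The strand setting is not known, so its values may hold antisense reads.

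Across the gamma cluster 19 of 22 genes had a positive log2 change, with a median of 0.14, against 49.0% of all genes positive and a median over all genes of -0.01. Of the A, B and C types, 10 of 12, 6 of 7 and 3 of 3 were positive. The gamma sum was 6896, 6697 and 5876 normalised reads in Ccm3 knock-out libraries, against 5422, 5457 and 5961 in wild-type libraries, so that knock-out 3 lay below wild-type 3. Pcdhga12, with 332, 286 and 262 in knock-out against 198, 221 and 249.2 in wild-type libraries, had the lowest unadjusted p of the gamma genes, and its adjusted p was 0.194 (limma). The count of positive genes is a description only, since reads in the shared exons and in overlapping annotated gene bodies could be split between or dropped from these genes by a counter that the sources used here do not name.

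The beta protocadherins are single-exon genes with no shared constant exon. Of 22 annotated protein-coding beta genes 21 were members, and 11 of 21 had a positive log2 change, with a median of 0.00 and none called. Their sum was 1849 ± 48.6 normalised reads in Ccm3 knock-out and 1800 ± 190 in wild-type cells (SD, n = 3 each), a 1.03-fold ratio. Pcdhb17 had 243, 252 and 242 in knock-out against 219.8, 240.3 and 230.2 in wild-type libraries, without overlap at a log2 change of 0.09 (adjusted p = 0.752, limma). Pcdhb16 had 260.3, 238 and 221 in knock-out against 182, 217 and 209 in wild-type libraries, also without overlap (adjusted p = 0.400). Pcdhb20 had 239, 262 and 212 in knock-out against 221, 238 and 279 in wild-type libraries. Pcdhb13, a low member, had 28.3, 29.4 and 22.7 in knock-out against 15.6, 21.4 and 15.3 in wild-type libraries, without overlap (log2 change 0.60, adjusted p = 0.334, limma), on 17 to 45 reads.

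Levels of the beta genes stepped up along the chromosome in both genotypes. The 12 genes from Pcdhb2 to Pcdhb13 had mean levels of 2.62 to 11.3 normalised reads per kilobase in Ccm3 knock-out and 3.22 to 10.7 in wild-type cells. The 9 genes from Pcdhb14 to Pcdhb22, which lie further along the cluster towards the gamma genes, had 13.9 to 66.8 per kilobase in knock-out and 15.5 to 69.1 in wild-type cells. These 9 genes held 84.4 to 87.1% of the beta sum in knock-out and 83.7 to 86.7% in wild-type libraries. The dividing point was read from the values, so the step is a description. Of the alpha cluster only Pcdhac2 was a member, with 19.8, 15.01 and 24.98 in knock-out against 31.9, 18.0 and 5.42 in wild-type libraries, on 6 to 43 reads.

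**Figure D4:**
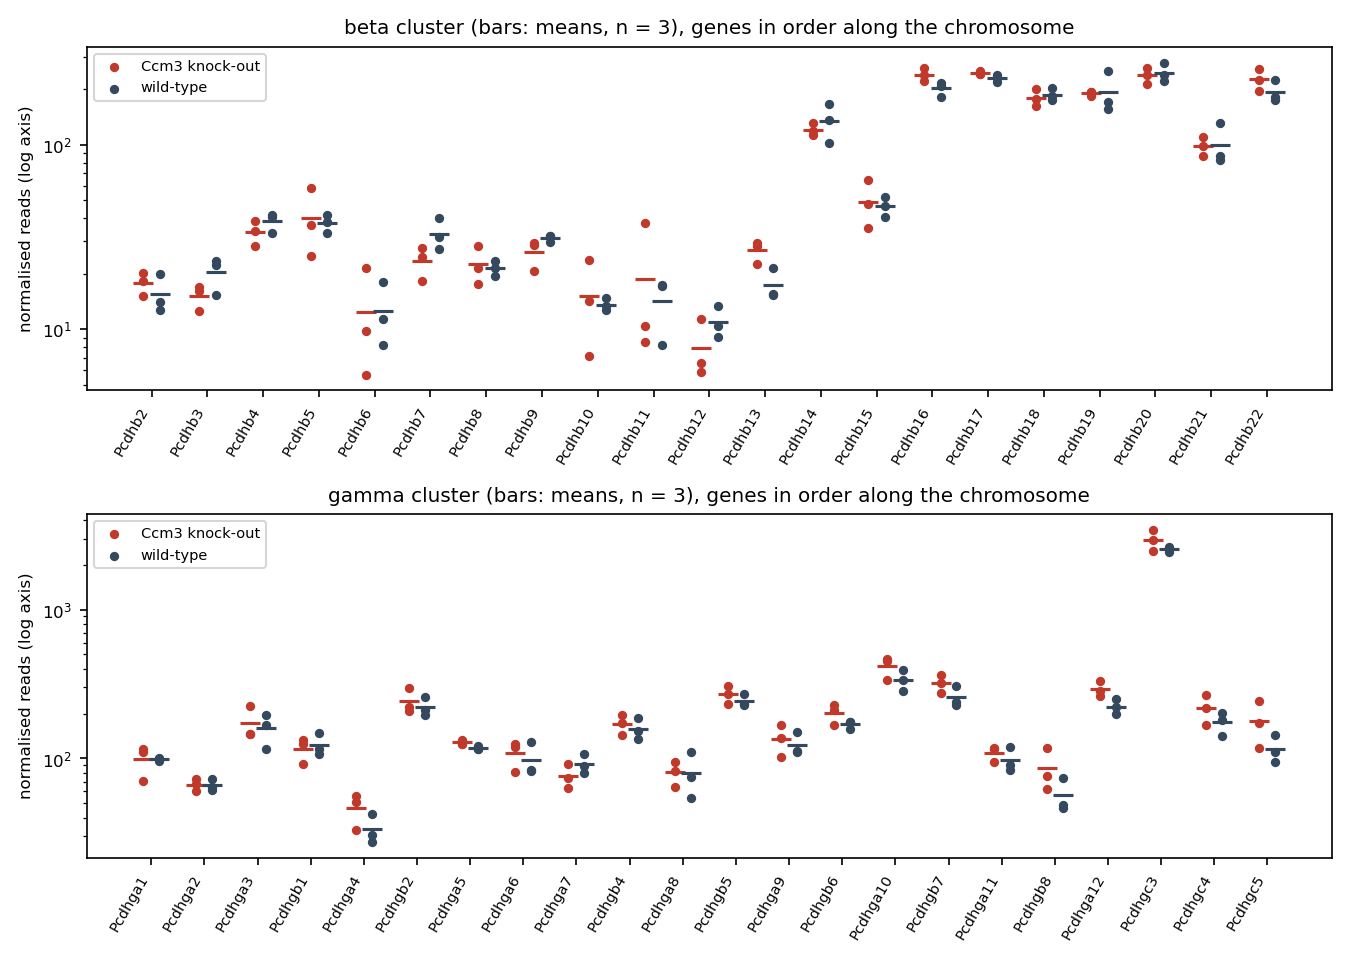
Normalised reads (vertical, log axis) of the beta genes (upper panel) and gamma genes (lower panel) in their order along chromosome 18; points are the 3 Ccm3 knock-out and 3 wild-type libraries, bars their means. The means of beta genes from Pcdhb14 on sit above those of the earlier ones in both genotypes, and Pcdhgc3 stands above the other gamma genes.

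A further set of members varied mainly between mice. Over 3-fold differences within a genotype were seen for 10 members, so a change of ordinary size was not detectable for them. Pcdh15, a tip-link protein of hair cells also found in oligodendrocyte precursors, had 10.4, 62.0 and 150 normalised reads in Ccm3 knock-out libraries, against 15.6, 138 and 52.4 in wild-type libraries. Its partner in the tip link, Cdh23, had 27.3, 119 and 37.5 in knock-out against 130, 69.4 and 39.7 in wild-type libraries. Neither gene separated the genotypes. Cdh10, a type II cadherin of neurons, had 17.9, 19.6 and 138 in knock-out against 17.8, 26.7 and 45.1 in wild-type libraries. Pcdh9, a neuronal delta-1 protocadherin, had 105, 119 and 403 in knock-out against 114, 270 and 286 in wild-type libraries. Pcdh11x, on the X chromosome, had 2.83, 15.7 and 43.1 in knock-out against 8.91, 30.7 and 27.99 in wild-type libraries, on 3 to 46 reads.

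In the knock-out group, knock-out 3 was the highest library for Pcdh15, Cdh10, Pcdh9 and Pcdh11x. The summed markers of granule and other neurons (12 of 15 tested, with Zic2 fallen, adjusted p = 0.0315, limma) were 2595, 2627 and 4392 in Ccm3 knock-out libraries, against 4085, 4201 and 3991 in wild-type libraries, so knock-out 3 was also the highest of its genotype there. Oligodendrocyte lineage markers (8 of 8 tested) summed to 2323, 1187 and 4384 in knock-out against 2127, 1904 and 8936 in wild-type libraries. The wild-type group did not repeat this order in these sums. Pcdh15 was highest there in wild-type 2, where the oligodendrocyte lineage sum was lowest. Pcdh9 and Cdh10 were highest in wild-type 3, where the neuron sum was lowest and the oligodendrocyte lineage sum highest, and Pcdh11x in wild-type 2, where the neuron sum was highest. Much of the wild-type neuron sum came from Zic1 (1569, 1446 and 1259) and Zic2 (1237, 1400 and 1353). Among wild-type libraries, Neurod1, Cbln1, Tubb3, Stmn2 and Snap25 were highest in wild-type 3. Rbfox3, Zic2, Syt1, Gad1 and Gad2 were highest in wild-type 2, and Zic1 and Calb1 in wild-type 1. The neuron sum thus does not give the order of each neuron marker. Zic2 lost its call with the replicate block (adjusted p = 0.0757) and whichever library was left out, except knock-out 3 (0.0534 to 0.173). The part of these cells in the member levels was not tested. Cdh26, the lowest of the 3 other cadherins, had 13.2, 12.4 and 18.2 in knock-out against 11.1, 10.01 and 12.6 in wild-type libraries.

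**Figure D5:**
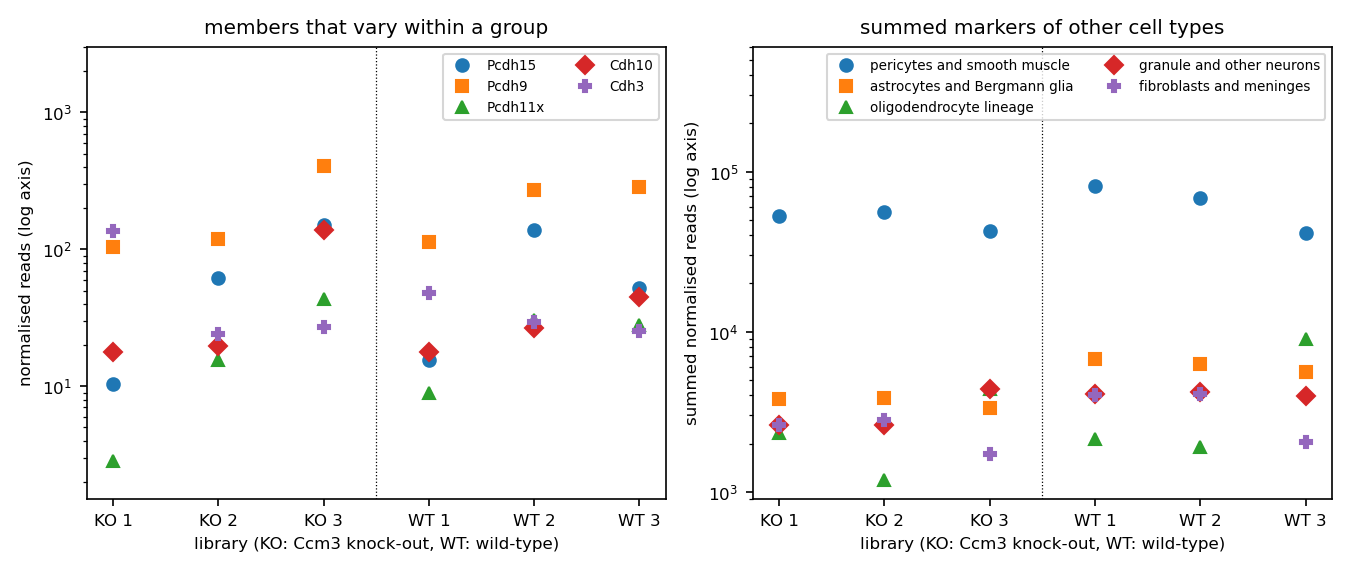
Left, normalised reads (log axis) of Pcdh15, Pcdh9, Pcdh11x, Cdh10 and Cdh3 in each library; right, summed normalised reads (log axis) of marker genes of 5 other cell types, with the 3 Ccm3 knock-out libraries left of the dotted line and the 3 wild-type libraries right of it. Knock-out 3 is the highest knock-out library for the members shown except Cdh3, and for the neuron and oligodendrocyte markers.

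The genes that serve cadherins were read from 6 lists with 81 tested genes. Of these, 4 rose and 2 fell in the main limma fit, close to the shares over all genes (3.6% rose and 2.64% fell). DESeq2 on recovered reads called 16 of the 81 (19.8%, against 9.75% of all genes). Of 15 catenins, plakophilins and actin linkers, 2 rose and 0 fell, with a median log2 change of 0.26, against 3.6% risen and a median of -0.01 over all genes; so few calls are a count and not a result about the list. Jup, or plakoglobin, had 2554, 2997 and 2196 normalised reads in Ccm3 knock-out libraries, against 1805, 1888 and 1695 in wild-type libraries (1.43-fold, adjusted p = 0.0486, limma). Cttn, the actin-branch protein cortactin, had 2752, 3109 and 2729 in knock-out against 2163, 2141 and 2061 in wild-type libraries (1.35-fold, adjusted p = 0.0287, limma). Both rose without overlap. Jup lost its call whichever library was left out, except knock-out 3 (adjusted p = 0.0921 to 0.157), and Cttn without knock-out 2 or any wild-type library (0.0751 to 0.134) and with the replicate block (0.0648). In the same list, the N-cadherin partner Ctnnb1, or beta-catenin, was not called (1.24-fold, 95% interval 1.02 to 1.51, adjusted p = 0.220).

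Among 13 genes of cadherin processing and turnover, 1 rose and 1 fell, against 6.24% of all genes called in either direction. Values did not overlap between genotypes for 7 of the 13 (53.8%, against 25.5% of all genes). An unadjusted p below 0.05 (limma) was found for 6, against 19.0% of all genes, so the uncalled genes are not shown to be unchanged. Rab11a, which recycles cadherins to the membrane, rose 1.44-fold (2280 ± 38.4 in Ccm3 knock-out and 1579 ± 73.0 normalised reads in wild-type cells, adjusted p = 0.00915, limma). Ptprm, a homophilic receptor phosphatase that binds cadherin complexes, fell to 6079 ± 257 in knock-out cells, against 8637 ± 1077 in wild-type cells (0.71-fold, adjusted p = 0.0357, limma). Rab11a lost its call without wild-type 2 (adjusted p = 0.0714), and Ptprm whichever library was left out (0.0677 to 0.122) and with the replicate block (0.0726). Of 8 transcription factors of cadherin genes 1 rose (3.6% over all genes), Tcf4, a basic helix-loop-helix factor that can repress E-cadherin, at 12231 ± 1170 in knock-out and 8226 ± 666 in wild-type cells (1.49-fold, adjusted p = 0.0219, limma; SD, n = 3 for each mean here). Its adjusted p was 0.0985 without wild-type 1, 0.125 without wild-type 2 and 0.0504 with the replicate block.

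Of 15 further cadherin superfamily genes 1 fell, against 2.64% of all genes. This was Ret, the receptor tyrosine kinase with extracellular cadherin-like domains, with 131, 187 and 204 normalised reads in Ccm3 knock-out libraries, against 437, 455 and 527 in wild-type libraries (0.36-fold, adjusted p = 0.00400, limma), and it was called in every alternative fit. None of 16 genes of the CTCF and cohesin machinery at the protocadherin clusters was called, and Ctcf itself had a fold of 0.89 (95% interval 0.76 to 1.03). None of 14 protocadherin signalling partners was called either, against 6.24% of all genes for both lists. Among these 14, an unadjusted p below 0.05 (limma) was found for 7, against 19.0% of all genes. Values did not overlap between genotypes for 8 of the 14 (57.1%, against 25.5% of all genes), so the absence of calls does not show that they were unchanged. The WAVE complex subunits that had the lowest p were Cyfip2 (0.49-fold, adjusted p = 0.0550), Cyfip1 (1.25-fold, 0.0699) and Abi2 (0.75-fold, 0.0806, limma).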

How the data were processed

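RNA-seq libraries came from 3 Ccm3 knock-out and 3 wild-type mice. Per the labels' protocols, libraries were made with a stranded total RNA kit. Per the submitters' processing notes, Trim Galore, STAR 2.5.3a and DESeq2 were used with the GRCm38 build; for the counter, annotation and strand setting, nothing was given in the sources used here. The deposited table holds a normalised signal, gene counts that the authors divided by a size factor per library: 100% of values were whole multiples of 1 read within 0.01 of a read. It lists 14437 genes, 14300 with a symbol, and 81 more were given a symbol from the reference. The number of columns left unused was 0.

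Genes with at least 10 normalised reads in at least 3 libraries (14076) were tested with limma 3.58.1 (R 4.3.3) after adding 1 to each value and taking log2 (trended empirical Bayes, two-sided, Benjamini-Hochberg, limit 0.05). Fold changes are on that scale, which understates those of low genes. The procedure was tested on simulated data. On recovered whole reads edgeR 4.0.16 called 897 genes and DESeq2 1.42.0 called 1373, against 879 for limma (507 rose, 372 fell). Other alternatives were a pseudocount of 5, no filter, a minimum of 50, quantile scaling, the replicate block and leaving out each library.

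Values in each library are given for members past the test, the 10 highest, the 3 highest of each class and members without overlap at a log2 change of at least 0.5; Cdh1, Pcdh9, Pcdh10, Pcdh11x and Pcdhga12 were added after their values were seen. In each partner list the called genes are named, or otherwise up to 3 with the lowest p; Ctnnb1 was added in the same way. The members and lists were chosen with earlier results of these data known. Coordinates and exon lengths are from GENCODE M21 (GRCm38) by Ensembl identifier, promoters from RefSeq (GRCm38.p6).

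Libraries of one genotype differed by a chi-square per degree of freedom of 13.9 to 57.4, so none was counted as a duplicate. Deviations of same-numbered libraries from their genotype means correlated at 0.101, 0.11 and 0.192, against -0.381 to 0.295 for other pairs. The highest value belonged to knock-out 2 and wild-type 1, so this check does not establish a pairing. Same-numbered libraries were treated as paired in the block, an alternative fit, from the numbers in the titles. The labels name no shared litter or batch.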

Additional observations from a re-analysis of the deposited data

How the results depend on the processing

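Of all 14076 genes, 283 to 1032 were called when 1 library was left out, 1373 by DESeq2 and 769 with the replicate block, against 879. Of members, 0 to 3 were called with 1 library left out (0 without wild-type 1; 1 without knock-out 2 or wild-type 2), and 4 by DESeq2, which added Pcdh17, or with the replicate block, which added Pcdh18 and changed no other member's call, against 3. Of 81 partner genes, 6 were called in the main fit and 1 to 10 with 1 library left out. With quantile scaling 10 were called (12.3%, against 6.64% of all genes) and by DESeq2 16 (19.8%, against 9.75%). With the block 4 were called (4.94%, against 5.46%). The partner share was thus near that of all genes in the main fit and not with quantile scaling or DESeq2. The fits with 1 library left out hold fewer libraries, and the causes of the moved counts were not tested. Cdh2, Cdh11 and Pcdh19 had negative changes in all 14 fits.

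Over all these fits 28 of the 65 members, all uncalled, had log2 changes of both signs, Pcdh9 (-0.88 to 0.09) and Pcdh11x (-1.39 to 0.38) among them. Of the members named by the rule 7 did so, with ranges given over all fits: Pcdhac2 (-0.29 without wild-type 3, range -0.29 to 0.89), Pcdhb20 (0.032 without knock-out 3, 0.047 without wild-type 3, range -0.12 to 0.047), Pcdh1 (-0.13 without knock-out 2, -0.0027 without wild-type 3, range -0.13 to 0.16), Pcdh15 (0.97 without knock-out 1, 0.68 without wild-type 2, 0.079 by edgeR, 0.11 by DESeq2, range -0.89 to 0.97), Pcdh12 (0.034 without knock-out 1, range -0.18 to 0.034), Cdh3 (-0.35 without knock-out 1, range -0.35 to 0.88) and Cdh10 (-0.55 without knock-out 3, range -0.55 to 0.97). Between 16 and 20 of the 22 gamma genes were positive in these fits (18 of 21 at the minimum of 50), with medians of 0.09 to 0.27. Class sums moved by less than the spread between libraries under quantile scaling. The median read count of members was 128, which limits what low members can show, and 3 mice per genotype limit every call.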
